A study of Mus musculus with 7 samples.

Results

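The genes of retinoid synthesis, binding and clearance were examined in whole hearts of newborn mice. Of the 9 genes chosen by symbol, 5 had a row among the 13788 genes of the table: Rdh10, Aldh1a1 and Aldh1a2 of the synthesis arm, and Dhrs3 and Cyp26b1 of the arm that reduces or clears its products. The 4 carrier and uptake genes Rbp4, Stra6, Crabp1 and Crabp2 had none and are not analysed here. Each gene of the table had at least 1 recovered read per 1000000 in 3 or more libraries.

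RNA was sequenced from hearts at postnatal day 0 of C57BL/6 mice. The wild-type group (WT) held 3 hearts, replicates 1, 2 and 28. The edKO group held 4 hearts, replicates 5, 6, 15 and 33, whose cardiomyocytes lacked Rxra and Rxrb, which encode retinoid X receptors. The sources used here state neither the driver of the deletion nor sex and litter, and they name no further allele or treatment for either group. Totals ranged from 12108464 to 24912403 recovered reads per library, and levels are normalised reads per 1000000. In bulk samples, fewer cells of a type and less RNA per cell cannot be told apart.

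Retinol circulates bound to RBP4 and enters cells through STRA6. RDH10 oxidises it to retinaldehyde, DHRS3 turns retinaldehyde back into retinol, and the ALDH1A enzymes make retinoic acid, which CRABP proteins bind and CYP26 enzymes hydroxylate and so clear. Retinoic acid acts on the receptors RARα, RARβ and RARγ, which bind DNA together with a retinoid X receptor, and in the developing heart Aldh1a2 is known as a gene of the epicardium.

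The bases before the annotated starts of the 3 genes that the results turn on are shown to let their promoters be set side by side. They are the 250 bases before each start, from RefSeq on GRCm38.p6, all on the forward strand: chr9:71215539-71215788 for Aldh1a2, chr19:20601718-20601967 for the downstream start of Aldh1a1, and chr4:144892577-144892826 for the most upstream start of Dhrs3. Capitals mark the CCAAT box and the octamer ATGCAAAT.
Aldh1a2: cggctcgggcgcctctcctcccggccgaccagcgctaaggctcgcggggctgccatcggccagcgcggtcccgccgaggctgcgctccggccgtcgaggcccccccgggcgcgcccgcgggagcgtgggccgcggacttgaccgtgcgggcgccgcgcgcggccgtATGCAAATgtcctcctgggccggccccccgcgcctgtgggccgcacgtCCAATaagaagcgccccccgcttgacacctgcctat
Aldh1a1: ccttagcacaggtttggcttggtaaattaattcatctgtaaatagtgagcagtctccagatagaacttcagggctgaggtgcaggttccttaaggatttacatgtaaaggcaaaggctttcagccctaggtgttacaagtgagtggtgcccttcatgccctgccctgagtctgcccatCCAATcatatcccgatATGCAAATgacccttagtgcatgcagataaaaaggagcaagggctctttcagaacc
Dhrs3: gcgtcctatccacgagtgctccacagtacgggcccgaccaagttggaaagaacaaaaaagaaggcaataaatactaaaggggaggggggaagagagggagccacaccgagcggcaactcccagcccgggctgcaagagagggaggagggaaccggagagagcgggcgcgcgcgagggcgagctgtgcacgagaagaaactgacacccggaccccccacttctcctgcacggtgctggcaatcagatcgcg

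The Aldh1a2 promoter had a G and C content of 77.6%, against a median of 52.4% over 32851 promoters of this length, and the Aldh1a1 promoter had 46.4%. The octamer began 84 bases before the start of Aldh1a2 and 56 before that of Aldh1a1, and a CCAAT box began 36 and 72 bases before it. On either strand, the octamer occurred in 1.60% and CCAAT in 33.8% of all 32851 promoters. The upstream start of Aldh1a1 had neither motif in its window, and the other 2 annotated starts of Dhrs3 had CCAAT on the reverse strand, 191 and 89 bases before one and 149 before the other, and no octamer, so the motifs depend on the start chosen. The octamer was added to the search after these sequences were seen. The half-site that nuclear receptors bind, AGGTCA, was searched on both strands and occurred in 14.02% of all promoters but in none of the 3 windows shown. The same held for its variant AGTTCA, found in 11.8% of all promoters, for the variant GGTTCA, found in 8.85%, and for TATAAA, found in 12.4%.

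Among the 5 genes, Aldh1a2 fell and Dhrs3 rose in edKO hearts. Aldh1a2 lay 1.97-fold lower and Dhrs3 1.49-fold higher, with no overlap between the groups for either gene. Aldh1a1, Rdh10 and Cyp26b1 did not pass the test. The 2 called genes were called by limma at an adjusted p under 0.05, which 4.21% of all genes reached, 2.08% as higher and 2.13% as lower in edKO. Non-overlapping groups were found for 17.4% of all genes, with edKO above WT in 8.41% and below it in 9.04%, so that feature by itself was common in this table.

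**Figure D1:**
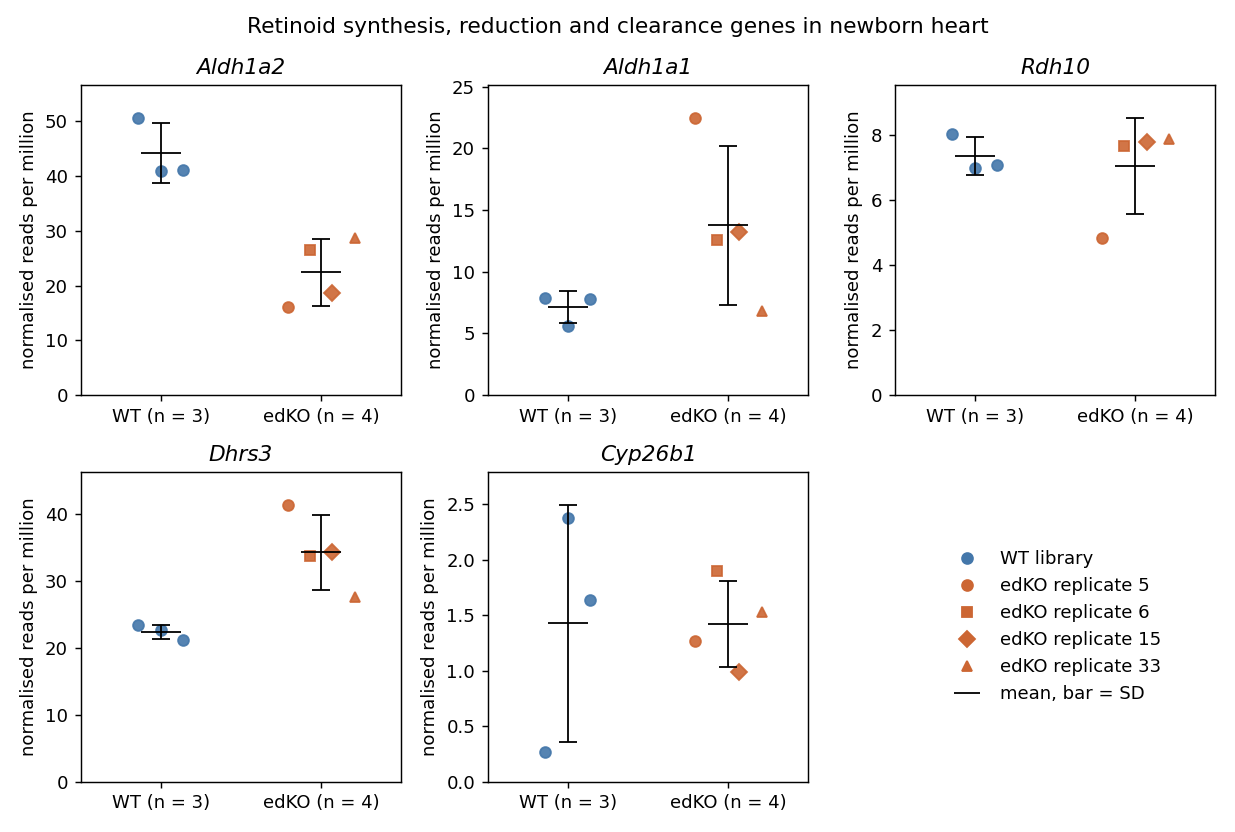
Level of each gene, in normalised reads per 1000000, in the 3 WT and 4 edKO libraries, each on its own linear axis from 0, with the mean and SD in black and a separate symbol for each edKO replicate. The Aldh1a2 points of edKO all lie below those of WT and the Dhrs3 points all above, while Aldh1a1, Rdh10 and Cyp26b1 overlap.

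Aldh1a2 (ENSMUSG00000013584, chromosome 9, 71215789 to 71296243 on GRCm38) encodes the retinaldehyde dehydrogenase that makes most retinoic acid in the embryo. Its level was 50.6, 40.96 and 41.1 in WT replicates 1, 2 and 28, and 16.0, 26.5, 18.6 and 28.7 in edKO replicates 5, 6, 15 and 33. The highest edKO library, replicate 33, thus stood well under the lowest WT library. The mean went from 44.2 ± 5.51 (SD, n = 3) to 22.5 ± 6.12 (SD, n = 4), a log2 difference of -0.98 with a 95% interval of -1.39 to -0.57 (limma adjusted p = 0.0146). The call was lost without WT replicate 1, 2 or 28 (limma adjusted p 0.0835, 0.0563 and 0.0566), with log2 differences between -1.11 and -0.84 over the 7 fits that left out 1 library.

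Aldh1a1 (ENSMUSG00000053279, chromosome 19, 20492715 to 20643465) encodes a second enzyme of this family, which also oxidises other aldehydes. It stood at 7.90, 5.61 and 7.82 in WT replicates 1, 2 and 28, and at 22.5, 12.6, 13.2 and 6.78 in edKO replicates 5, 6, 15 and 33. In 3 of the 4 edKO libraries it exceeded every WT library, and in replicate 33 it lay within the WT range. The log2 difference was 0.77, with a 95% interval of 0.12 to 1.42 (limma adjusted p = 0.187). Without edKO replicate 33 it was 1.04 and passed (limma adjusted p = 0.0159). Its neighbour Aldh1a7 on the opposite strand shares 100 of the 4934 windows of 61 bases in Aldh1a1 transcripts (2.03%). The other 4 genes shared none with any transcript of another gene. Only exact matches between annotated transcripts were counted, and the share of reads of uncertain origin was not measured.

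Rdh10 (ENSMUSG00000025921, chromosome 1, 16105774 to 16133734), which carries out the first oxidation step, was at 8.05, 6.98 and 7.09 in WT. The edKO levels in replicates 5, 6, 15 and 33 were 4.84, 7.69, 7.81 and 7.88. Replicate 5 stood below all other libraries and the other 3 within the WT range. Its log2 difference was -0.075 with a 95% interval of -0.47 to 0.32 (limma adjusted p = 0.855), and 0.073 without edKO replicate 5.

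Dhrs3 (ENSMUSG00000066026, chromosome 4, 144892827 to 144928209), whose product opposes RDH10, was nearly constant in WT, at 23.3, 22.6 and 21.2 in replicates 1, 2 and 28. It reached 41.3, 33.7, 34.3 and 27.6 in edKO replicates 5, 6, 15 and 33. Here too replicate 33 lay nearest to WT. The means were 22.4 ± 1.07 (SD, n = 3) and 34.2 ± 5.62 (SD, n = 4), with a log2 difference of 0.58 and a 95% interval of 0.29 to 0.87 (limma adjusted p = 0.0336). Dhrs3 passed in 1 of the 7 fits that left out a library, the one without edKO replicate 33 (0.00487). Without WT replicates 1, 2 and 28 the limma adjusted p was 0.0931, 0.125 and 0.134, and without edKO replicates 5, 6 and 15 it was 0.0730, 0.0554 and 0.0794.

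Cyp26b1 (ENSMUSG00000063415, chromosome 6, 84571414 to 84593908 on the reverse strand), the retinoic acid hydroxylase of the list, was barely detected. It had 3, 34 and 22 reads in WT replicates 1, 2 and 28 and 14, 31, 16 and 37 in edKO replicates 5, 6, 15 and 33. WT replicate 1 was at the floor of 3 reads, a level of 0.270 normalised reads per 1000000, and far below the other 2 WT libraries. The mean levels were 1.43 ± 1.07 (SD, n = 3) and 1.42 ± 0.388 (SD, n = 4), with a log2 difference of 0.095 and a 95% interval of -0.60 to 0.79 (limma adjusted p = 0.897). Without WT replicate 1 the log2 difference was -0.32, so no direction can be read at this depth.

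Of the 3 synthesis genes only Aldh1a2 passed the test. The mean log2(value + 1) of Rdh10, Aldh1a1 and Aldh1a2 was 3.85 ± 0.15 (SD, n = 3) in WT and 3.76 ± 0.092 (SD, n = 4) in edKO, that of Dhrs3 and Cyp26b1 2.86 ± 0.35 and 3.19 ± 0.14. The synthesis mean minus the reduction and clearance mean was 1.53, 0.55 and 0.92 in WT replicates 1, 2 and 28, and 0.44, 0.56, 0.69 and 0.58 in edKO replicates 5, 6, 15 and 33. These ranges overlap, and the high value of WT replicate 1 goes with its 3 Cyp26b1 reads. No p is given for these means, since the genes were chosen with results known.

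Per kb of the longest annotated coding transcript, the order of the genes in WT was Aldh1a2 (19.5 ± 2.44), Dhrs3 (9.57 ± 0.459), Aldh1a1 (3.01 ± 0.552), Rdh10 (2.06 ± 0.164) and Cyp26b1 (0.317 ± 0.237), each a level in normalised reads per 1000000 per kb. In edKO it was Dhrs3 (14.6 ± 2.41), Aldh1a2 (9.92 ± 2.70), Aldh1a1 (5.83 ± 2.75), Rdh10 (1.97 ± 0.412) and Cyp26b1 (0.316 ± 0.0863). Neighbours overlapped between libraries for Dhrs3 and Aldh1a2 and for Aldh1a2 and Aldh1a1 in edKO. The length used decides part of this order. Over the union of all exons Aldh1a1 was at 1.44 ± 0.264 in WT, below Rdh10 at 1.77 ± 0.142. Over its shortest coding transcript of 686 bases, Dhrs3 was at 32.6 ± 1.56 in WT, above Aldh1a2, in place of 9.57 over 2337 bases. Over its shortest coding transcript of 825 bases, Aldh1a1 was at 16.7 ± 7.86 in edKO, above the 9.92 of Aldh1a2. Which transcripts these hearts used was not measured, so the order of Aldh1a2, Dhrs3 and Aldh1a1 within a group depends on this choice.

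**Figure D2:**
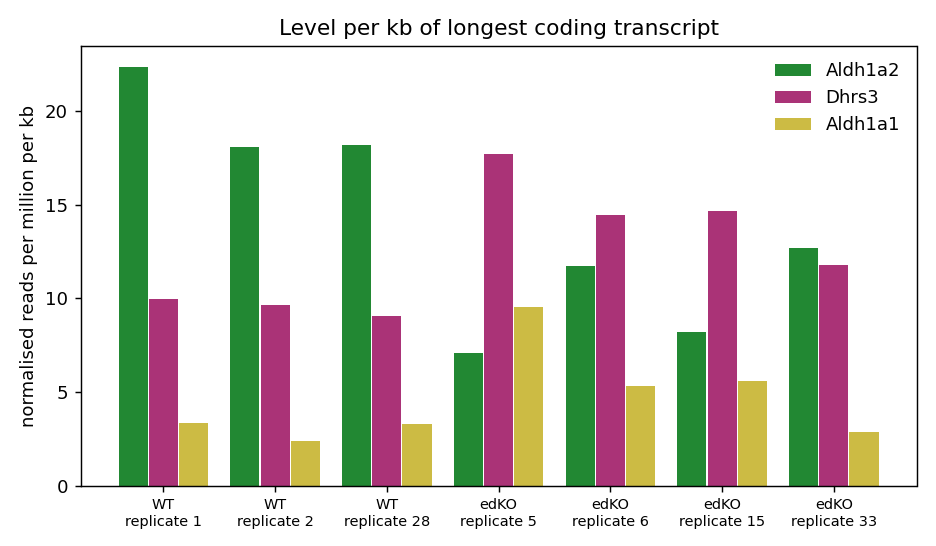
Level of Aldh1a2, Dhrs3 and Aldh1a1 in each library, in normalised reads per 1000000 per kb of the longest coding transcript, on a linear axis from 0. Aldh1a2 is the tallest of the 3 bars in each WT library and in edKO replicate 33, Dhrs3 the tallest in edKO replicates 5, 6 and 15.

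Within single libraries, ratios and sums of single members were formed as well. The ratio of Aldh1a2 to Dhrs3, per kb of the longest coding transcripts, was 2.24, 1.87 and 2.003 in WT replicates 1, 2 and 28, and 0.400, 0.811, 0.560 and 1.08 in edKO replicates 5, 6, 15 and 33. With these lengths Aldh1a2 stood above Dhrs3 in every WT library and below it in 3 of the 4 edKO libraries. Over the 686-base transcript of Dhrs3 the mean of Aldh1a2 lay below that of Dhrs3 in WT as well. Of the summed level of Aldh1a1 and Aldh1a2, Aldh1a1 made up 13.0%, 11.6% and 15.4% in WT, and 57.4%, 31.3%, 40.5% and 18.5% in edKO replicates 5, 6, 15 and 33. The sum of the pair was 22.5 ± 2.77 (SD, n = 3) and 15.8 ± 1.43 (SD, n = 4) per kb. With Rdh10 added, the sum of the 3 synthesis genes was 27.9, 22.4 and 23.5 per kb in WT replicates 1, 2 and 28. It was 17.9, 19.2, 16.0 and 17.8 in edKO replicates 5, 6, 15 and 33, with no overlap at these lengths. Both sums depend on the length used. Over its 825-base transcript Aldh1a1 alone was at 8.62 ± 1.58 in WT and 16.7 ± 7.86 in edKO, and no sums were formed at that length. All these ratios and sums contain the called gene Aldh1a2. Since Aldh1a2 lay lower and Dhrs3 higher in every edKO library, their ratio could not overlap and adds nothing to the 2 calls. All are given as a description.

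The edKO libraries ranked alike for the 3 genes: replicates 5, 15, 6 and 33, in that order, had the lowest to the highest Aldh1a2, and the highest to the lowest Aldh1a1 and Dhrs3. The summed level of 10 fibroblast genes followed that order upwards, at 3676, 3888, 5346 and 7433, and that of 7 erythroid genes downwards, at 53861, 41112, 32499 and 27777. The sum of the 2 measured genes of the brown fat list also went downwards, at 151.2, 151.1, 134.6 and 111.5. The sums of the epicardium, endothelium and endocardium, mural, cardiomyocyte, liver, neural crest and leukocyte lists did not follow that order. In WT the fibroblast sum ranged from 5919 to 7464 and the erythroid sum from 24103 to 40446. Replicate 33 lay within the WT range of both sums. Its Aldh1a2 was below and its Dhrs3 above every WT library. The cause of this ranking was not tested. With the mean of the fibroblast list as a covariate, Aldh1a2 was still called (log2 difference -0.72, limma adjusted p = 0.0376) and Dhrs3 was not (0.42, adjusted p = 0.115). With the mean of the erythroid list, both calls were lost, at log2 differences of -0.82 for Aldh1a2 and 0.42 for Dhrs3 (limma adjusted p 0.0975 and 0.183). These covariates were added after the data were seen.

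Because Aldh1a2 is a gene of the epicardium, 15 epicardial markers were measured. The transcription factor gene Tbx18 rose from 26.98 ± 2.25 (SD, n = 3) to 40.9 ± 2.23 (SD, n = 4), a log2 difference of 0.58 (limma adjusted p = 0.008), and lost its call without WT replicate 2 (0.0577). The other 14 did not pass, where limma called 4.21% of all genes. Wt1, a regulator of epicardial cells named after its values were seen, was at 13.3 ± 1.28 and 20.2 ± 5.66, and the mesothelial surface genes Msln and Upk3b at 59.3 ± 3.30 and 49.6 ± 17.5, and at 55.8 ± 5.71 and 43.6 ± 18.9. The summed level of the list was 279 to 326 in WT and 245 to 386 in edKO, so the groups overlapped. Relative to that sum, Aldh1a2 was 0.170, 0.147 and 0.126 in WT replicates 1, 2 and 28 and 0.0569, 0.0909, 0.0758 and 0.0745 in edKO replicates 5, 6, 15 and 33. That sum includes Tbx18 and Wt1, and of its 15 genes 6 had positive and 9 negative log2 differences. Its mean was 301 in WT and 301 in edKO, so this ratio largely repeats the call of Aldh1a2 and is no separate result. Relative to Upk3b alone, Aldh1a2 was 0.883, 0.827 and 0.678 in WT and 0.464, 0.607, 0.705 and 0.411 in edKO, and the groups overlapped. With the mean of the epicardial list as a covariate, also added after the data were seen, the log2 difference of Aldh1a2 was -0.95 (limma adjusted p = 0.00465). That mean joins genes that moved in opposite directions, and a change in epicardial cell number was not tested.

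**Figure D3:**
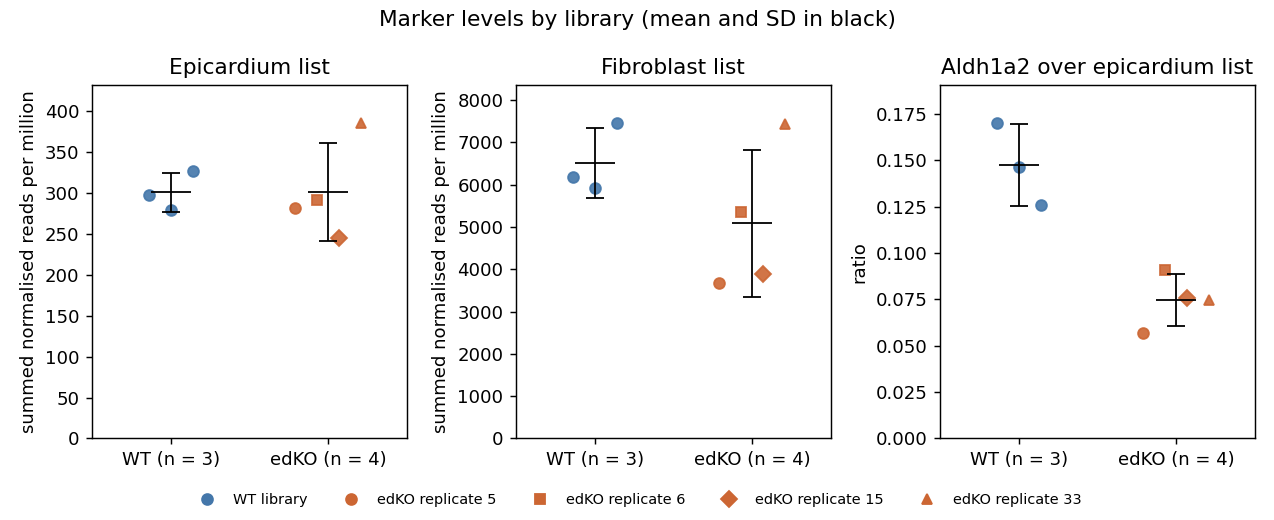
Summed level of the epicardium list and of the fibroblast list, in normalised reads per 1000000, and the ratio of Aldh1a2 to the epicardium sum, by library, with the mean and SD in black. The sums overlap between WT and edKO, and all 4 edKO ratios, from 0.0569 to 0.0909, lie below the 3 WT ratios, from 0.126 to 0.170. The epicardium sum had like means in both groups, so the ratio largely repeats the fall of Aldh1a2.

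The defining cardiomyocyte genes were abundant in all libraries, with a summed level of 55930 to 63274 in WT and 56590 to 59126 in edKO over 12 genes. The sum does not show the spread of Myl7, one of the 12. It was at 577, 756 and 1015 in WT replicates 1, 2 and 28. In edKO replicates 5, 6, 15 and 33 it was at 477, 311, 274 and 1285 (limma adjusted p = 0.432). Over all genes limma called 4.21%. It called 0 of these 12, 0 of 10 fibroblast, 0 of 10 endothelial and endocardial, 0 of 8 mural, 0 of 9 liver and 0 of 5 leukocyte genes. At an unadjusted limma p under 0.05 these lists held 0, 1, 2, 0, 2 and 0, against 19.2% of all genes, and limma voom called 0 in each. Of the 7 erythroid genes 1 was higher, and of the 5 neural crest, Schwann cell and neuron genes Dbh was lower. Of the 2 measured genes of the brown fat list, Ppargc1a was higher and Cidea lower. Cidea kept its call in all 7 fits that left out a library, whereas Dbh and Ppargc1a kept theirs in 1, the one without edKO replicate 33 (limma adjusted p up to 0.147 and 0.166 in the others). The 6 lung epithelium genes had no row, nor had Ucp1, Adipoq, Plin1 and Elovl3 of the brown fat list. Ppargc1a and Cidea are thus not read as a sign of brown fat. The liver sum was 64.1 to 72.8 in WT and 74.2 to 109 in edKO. No part of these cell types in the member values beyond the covariates above was tested.

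Of 40 other genes of retinoid metabolism, 21 were measured: 1 was higher, 2 were lower and 18 did not pass. Over all genes limma called 2.08% higher and 2.13% lower. At an unadjusted limma p under 0.05 the list held 8 of the 21, against 19.2% of all genes. All edKO libraries lay above WT for 1 and below WT for 4 of the 21, against 8.41% and 9.04% of all genes. The median log2 difference of the 21 was -0.012, against -0.0036 over all genes. Dhrs4, a peroxisomal reductase of retinaldehyde and other carbonyls, fell from 49.0 ± 1.86 (SD, n = 3) to 28.5 ± 3.495 (SD, n = 4), 1.70-fold, and was called whichever library was left out (limma adjusted p at most 0.0246). Lipe, the hormone-sensitive lipase, which also hydrolyses retinyl esters, fell 1.97-fold, from 46.5 ± 6.25 to 23.2 ± 3.75, and also kept its call in all 7 such fits. Lpl, the lipoprotein lipase that can release retinol from circulating retinyl esters, rose from 855 ± 47.8 to 1415 ± 291. It was called in 2 of the 7 fits that left out a library, those without edKO replicate 6 or 33. Of the abundant members, the intracellular fatty acid and retinoic acid binding protein gene Fabp5 had a log2 difference of 0.10, the alcohol dehydrogenase gene Adh5 0.24, and the aldose reductase gene Akr1b3 -0.19.

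**Figure D4:**
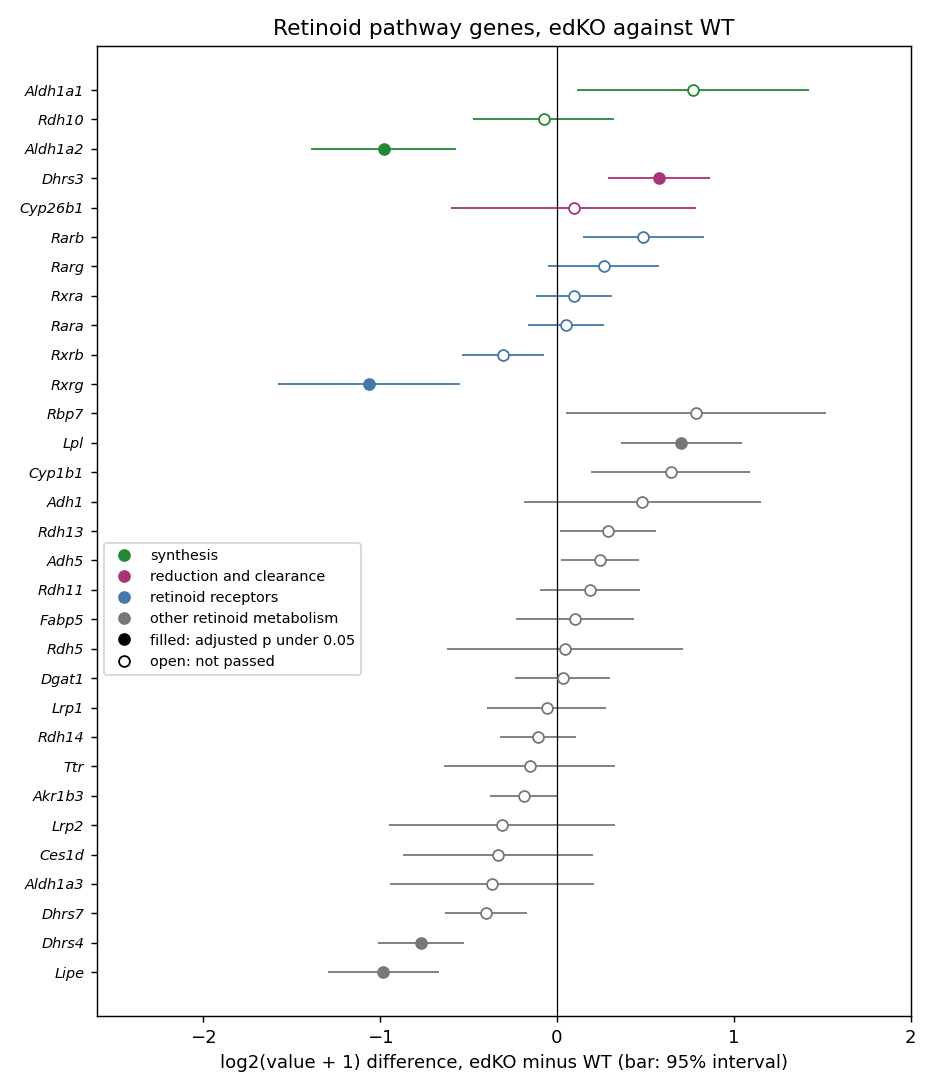
Log2(value + 1) difference, edKO minus WT, of the 5 genes of synthesis, reduction and clearance, the 6 retinoid receptor genes and 20 of the 21 measured other genes of retinoid metabolism, with 95% intervals. Filled points passed limma at an adjusted p under 0.05: Aldh1a2, Rxrg, Dhrs4 and Lipe to the left of 0, Dhrs3 and Lpl to the right.

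Of the 6 retinoid receptor genes 1 fell and 5 did not pass, where limma called 4.21% of all genes. An unadjusted limma p under 0.05 was found for 3 of the 6, against 19.2% of all genes. Rxrg, the retinoid X receptor gene not targeted, went from 2.86 ± 0.522 (SD, n = 3) to 0.878 ± 0.441 (SD, n = 4). It was called in 2 of the 7 such fits, again those without edKO replicate 6 or 33 (limma adjusted p up to 0.147). Its call was also lost with limma voom (adjusted p = 0.0502) and with Xist as a covariate (limma adjusted p = 0.0622). The same held for the fibroblast or erythroid mean as a covariate (limma adjusted p = 0.123 and 0.175). Its edKO levels were 0.741, 0.934, 0.389 and 1.45 in replicates 5, 6, 15 and 33. Rxrg thus met the read minimum of the table through WT, and such a filter favours a fall. The targeted Rxra was at 61.6 ± 1.99 in WT and 66.1 ± 6.74 in edKO, and Rxrb at 48.2 ± 3.18 and 38.9 ± 4.00. Rxrb was lower in every edKO library than in any WT library, with a log2 difference of -0.31 (limma adjusted p = 0.139). It was called with library weights (limma adjusted p = 0.0344) or without edKO replicate 33 (0.0440). The levels of both genes are totals over whole genes in whole hearts and do not check the deletion. Rarb, itself a known target of retinoic acid, was at 17.1, 16.3 and 18.4 in WT and at 24.3, 24.1, 32.2 and 19.2 in edKO replicates 5, 6, 15 and 33. It lay above every WT library in all 4, with a log2 difference of 0.49 (limma adjusted p = 0.109). Rara and Rarg had log2 differences of 0.051 and 0.26 (limma adjusted p = 0.815 and 0.348).

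Of 21 retinoic acid target genes, 9 were measured and 0 were called by limma or by limma voom, with 3 at an unadjusted limma p under 0.05 (Rarb, Tgm2 and Meis2), a threshold that 19.2% of all genes passed. Tgm2, the tissue transglutaminase gene, was at 356 ± 24.9 (SD, n = 3) and 532 ± 105 (SD, n = 4), with no overlap and a log2 difference of 0.56 (limma adjusted p = 0.0549). Tgm2 was called with robust variance (limma adjusted p = 0.0493), quantile normalisation (0.0335), library weights (0.0197), the epicardial mean as a covariate (0.0473) or without edKO replicate 6 (0.0104), and reached at most 0.263 otherwise. Rarb was called with library weights (limma adjusted p = 0.0192) or without edKO replicate 33 (0.0210), and reached at most 0.398 otherwise. The homeobox gene Meis2 was lower in every edKO library than in any WT library, at 37.7 ± 1.85 and 30.3 ± 5.36 (limma adjusted p = 0.233). The related Meis1 had a log2 difference of -0.23. The median over the 9 was -0.16, and 2 of the differences were positive and 7 negative. Among the negative ones, Hoxb2, Hoxb3, Hoxb4 and Ret had group means of only 0.807 to 1.66. Hoxb3 gave the median, so no general direction of the list can be read from it. Dhrs3, a known retinoic acid target as well, is counted with the reduction and clearance genes.

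The genes whose profiles lay closest to the 2 called members, by the root mean square difference of log2(value + 1) from the WT mean over 7 libraries, were the cell cycle transcription factor gene E2f1 (0.107) and Cdt1 (0.122) for Aldh1a2, and Smg1, a kinase gene of nonsense-mediated decay (0.0718), and Errfi1 (0.0719) for Dhrs3. Cdt1, a replication licensing factor, fell from 15.5 ± 1.10 (SD, n = 3) to 7.17 ± 2.07 (SD, n = 4), with the order of edKO replicates 15, 5, 6 and 33 from low to high. Errfi1, an inhibitor of growth factor receptors, was at 16.9 ± 0.683 and 24.7 ± 4.00. Of the 4 genes, Cdt1 and Smg1 passed the test and E2f1 and Errfi1 did not (limma adjusted p = 0.0502 and 0.0596). All 4 were picked for likeness to a called gene in these same libraries. Low p-values follow from that choice and are no separate result. Of the 7 fits that left out a library, Cdt1 was called in 4, those without an edKO library, Smg1 in 2, those without edKO replicate 5 or 33, E2f1 in 2, those without edKO replicate 6 or 33, and Errfi1 in 1, without edKO replicate 33. The highest limma adjusted p was 0.0695 for Cdt1, 0.114 for Smg1, 0.201 for E2f1 and 0.189 for Errfi1.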

How the data were processed

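RNA of whole newborn hearts was sequenced in 7 libraries, 3 WT and 4 edKO, grouped by the sample titles. Replicates are biological, per the labels' protocols, and their RNA was turned into amplified cDNA (Ovation RNA-seq System v2) and sequenced as single 61-nt reads. Build GRCm38 and the tools cutadapt, limma and RSEM 1.3.1 are named in the submitters' processing notes, without an annotation release. The deposited signal values of the authors are normalised reads per 1000000. By test on the values, each equals reads plus 0.5 over an effective library size, and 100% of the 96516 values came out whole within a relative tolerance of 1e-06. The floor of 3 reads covers counting error only, since the cDNA was amplified without molecular identifiers.

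The edKO and WT groups were compared by limma 3.58.1 (R 4.3.3) with a mean-variance trend, on log2(value + 1), over all 13788 genes and 7 libraries, 2-sided, without covariates, Benjamini-Hochberg adjusted, threshold 0.05. It was tested on simulated data. Fold changes refer to log2(value + 1) and are understated for low genes. Intervals are 95% from the same fit. Gene positions, lengths and shared 61-base windows come from GENCODE M21 on GRCm38, promoters from RefSeq on GRCm38.p6, which held 4 of the 5 genes measured. The members, lists and tests were chosen with earlier results of these data known. Named genes were the members, the receptors, the called and 4 most abundant genes of the other retinoid lists, leading cell type markers, and the 2 closest profiles per called member; only the markers and list genes a result rests on are given values. Single-gene results of 2 list genes are not reported here. Other steps used Python 3.11.15 and pandas 2.3.3.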

Additional observations from a re-analysis of the deposited data

Results flagged for a closer look

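Rdh10 in edKO replicate 5 was 4.84 normalised reads per 1000000, far below the other 3 edKO libraries, with a gap of 0.936 of the group's range. It exceeds Dixon's 95% critical value for 4 samples. Chance flags about 1 in 20 groups, and 39 genes were examined.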

How the results depend on the processing

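With limma, 580 genes and 2 of the 5 members were called. Other settings that moved the count of all genes by over 1.5 times gave 370 without the mean-variance trend, 1284 with library weights, 364 with Xist as a covariate, 336 with the fibroblast mean and 207 with the erythroid mean as a covariate. Leaving out 1 library gave 222 to 1177. The members called were 1 without the trend, with Xist, with limma voom or with the fibroblast mean (Aldh1a2 each time), 0 with the erythroid mean, and 0 to 3 on leaving out 1 library. Aldh1a1 was called with library weights (adjusted p = 0.0277). The synthesis minus reduction and clearance difference, -0.43, ranged from -0.66 to -0.16 on leaving out 1 library. On leaving out 1 library, Rdh10 ranged from -0.13 to 0.073 and Cyp26b1 from -0.32 to 0.39. Rdh10 changed sign without edKO replicate 5 (0.073), with the fibroblast mean (0.033) and with the erythroid mean (0.043), and Cyp26b1 without WT replicate 1 (-0.32) and with library weights (-0.15); the cause was not tested. Pseudocounts of 0.1 and 5, filters at a mean of 1 and 10, robust variance, quantile normalisation and median centring changed no member's call or sign; Rdh10 and Cyp26b1 fell outside the filter at 10. The planned edgeR and DESeq2 fits were not run: the deposited unit is a signal, and a separate check of whole reads, which those fits required, did not pass for edKO replicate 33, although the reads recovered in all 7 libraries were used for limma voom. No paired analysis was possible because the groups share no replicate number. Depth limits Cyp26b1, at 3 to 37 reads.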
